A study of Homo sapiens with 21 samples.

Results

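Histone genes encode the proteins that package DNA, and 65 of them were followed here through radiation-induced senescence and the loss of cyclin D1 and its kinases in human fibroblasts. Members were chosen by gene symbol. They are the replication-dependent H1, H2A, H2B, H3 and H4 genes together with replacement and variant genes, among them H1-10, H2AJ, H2AZ1, H2AZ2, H3-3A, H3-3B, MACROH2A1 and MACROH2A2. Of the 16383 genes in the table, 71 matched by name, and 65 had a value above 0 in at least 3 libraries. The other 6 had reads in at most 2 libraries. The members divide into 56 replication-dependent genes (5 H1, 13 H2A, 16 H2B, 11 H3 and 11 H4) and 9 variants.

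The cells were IMR90 fibroblasts, an established line from human lung, with a wild-type genotype per the labels. RNA was sequenced from 7 groups of 3 libraries. Proliferating cells were neither irradiated nor transfected, so those effects cannot be told apart in any comparison with them. The other 6 groups were irradiated, given siRNA (5 nM) by DharmaFECT transfection on day 4 and again on day 7 after irradiation, and harvested on day 10. They received a non-targeting siRNA (NT3 or NT4), an siRNA against CCND1 (cyclin D1), CDK4 or CDK6 (its partner kinases), or siRNAs against CDK4 and CDK6 together, called dual knockdown below. For the knockdowns the titles name only the target, not the siRNA or how many were used. The effect of a reagent therefore cannot be told apart from that of its target. The design text numbers the controls differently from the titles, whose names are used here. The 4 knockdowns were each set against the mean of NT3 and NT4, called the controls, so these comparisons share 6 control libraries. Nothing in the labels says that libraries came from separate cultures, so p-values measure the spread between these libraries, which may be technical.

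Replication-dependent histone genes are transcribed in bulk during S phase, when new chromatin needs new histones. Their messages are the only metazoan mRNAs known to end without a poly(A) tail: a stem-loop just past the stop codon is bound by SLBP and the message is cut after it. Most variant and replacement histones come from ordinary polyadenylated messages that are also made outside S phase, though their level may still vary with the cell cycle. Their chaperones include HIRA, which places H3.3 outside replication. Libraries made by poly(A) capture, as these were, are expected to hold the ordinary messages and only those replication-dependent transcripts that carry a tail. Values below are therefore levels of polyadenylated or otherwise captured RNA, and the level of stem-loop-ended histone mRNA was not measured.

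The stem-loop is printed for the members the results turn on, because it defines the class. It was read from the GRCh38 genome past the stop codons of GENCODE v44. The sequences run 5′ to 3′ on the coding strand, as DNA, with the 16-base stem-loop in capitals.
H2BC12: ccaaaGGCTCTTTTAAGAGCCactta
H2BC21: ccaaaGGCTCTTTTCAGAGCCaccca
H2AC6: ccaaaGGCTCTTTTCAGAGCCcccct
H1-2: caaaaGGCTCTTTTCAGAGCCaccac
H2BC4: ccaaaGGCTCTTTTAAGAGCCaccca
H2BC5: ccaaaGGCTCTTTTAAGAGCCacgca
H4C8: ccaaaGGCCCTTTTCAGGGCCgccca
H2AC12: acaaaGGCTCTTTTCAGAGCCattct
H2AC20: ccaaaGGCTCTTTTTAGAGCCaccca
These lie at chr6:27146361-27146386 (minus strand) for H2BC12, chr1:149886183-149886208 (minus strand) for H2BC21, chr6:26124664-26124689 (plus strand) for H2AC6, chr6:26055739-26055764 (minus strand) for H1-2, chr6:26123467-26123492 (minus strand) for H2BC4, chr6:26158582-26158607 (plus strand) for H2BC5, chr6:26285126-26285151 (minus strand) for H4C8, chr6:27147541-27147566 (plus strand) for H2AC12 and chr1:149887386-149887411 (plus strand) for H2AC20. The stem-loop pattern that these forms share, with any base at the positions where they may vary, was searched on the coding strand in the 200 bases after the stop codon and found in 56 of 56 replication-dependent members and 0 of 9 variants. Across 19856 protein-coding genes, these members among them, it was found in 72, or 0.363%. Since the pattern marks the class, these counts describe the class and are not a test. The most frequent form, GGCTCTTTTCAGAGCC, occurred in 33 members, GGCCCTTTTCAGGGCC in 8 and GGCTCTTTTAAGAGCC in 7. H2BC12, H2BC4 and H2BC5 share the last of these. The annotated canonical transcript of all 56 genes has no intron. They lie on chromosome 6 (48 genes, between positions 26020451 and 27893891), chromosome 1 (7 genes) and chromosome 12 (1 gene).

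Each library's depth over the table's genes was between 12892442 and 21822152 reads, and no pair of libraries was identical. Values are reads divided by 1 factor per library, called normalised read counts here. Tests used limma on log2(value + 1) with all 21 libraries, over the 11579 genes that reached 10 normalised reads in 3 or more libraries. A gene passed at a Benjamini-Hochberg adjusted p under 0.05, two-sided. The siRNA targets were left at 8.67 to 20.6% of their control means. None of the 6 fibroblast markers stayed under 10, while the summed immune markers lay at 654 to 1604 and the epithelial ones at 159 to 595. The epithelial sum was highest in the CCND1, CDK6 and dual knockdowns, and the immune sum was higher in NT4 (1266 to 1417) than in NT3 (888 to 991), without overlap, and highest in CDK4 knockdown (1498 to 1604). Most of the immune sum was CD68 (611 to 1587 reads per library), and 3 of the 5 immune markers stayed under 10 in every library. Most of the epithelial sum was KRT19 (135 to 553 reads per library). The part of these markers in the results was not tested. The third NT3 library stood apart: the SD of its log2 deviations from its group was 0.34, against 0.19 to 0.26 in the other 20 libraries. For members, results that rest on it are given with and without it. Reads shared by near-identical histone genes could have been assigned in more than one way, and their handling and the strand setting are not given in the sources used here, so levels of single replication-dependent genes, H2AC18 among them, are uncertain. Intervals of counting error are wide where a gene has few reads: 33 members did not reach a value of 10 in 3 libraries, and 28 of these had under 10 reads in every library.

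The replication-dependent signal was several-fold higher in irradiated cells than in proliferating cells. Summed over the 56 genes, the normalised read count was 813, 829 and 829.97 in the proliferating libraries, 6191, 6430 and 7200.04 in NT3, and 4386, 4686 and 4499 in NT4. All 6 control libraries lay above all 3 proliferating libraries, and NT3 lay above NT4. The mean of the controls was 6.75 times that of proliferating cells. Most of the sum came from few genes: H2BC12, H2BC21, H2AC6 and H1-2 made up 71.3 to 84.7% of it, depending on the library. Without these 4 genes the sum was 5.70 times (NT3) and 4.03 times (NT4) the proliferating level. The 33 low members together summed to only 34.9 to 105.9 in any library.

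H2BC12, which encodes a core H2B, had 321, 309.7 and 354 in proliferating cells, 2216, 2345 and 2835 in NT3 and 1939.8, 1942 and 1909 in NT4. All 6 control libraries lay above the proliferating ones (log2 fold change 2.73, SE 0.065, adjusted p = 1.14e-18). H2BC21, another H2B gene, went from 62.9, 77.7 and 77.9 to 1082, 1080.5 and 1166 in NT3 and 589, 646 and 674 in NT4 (log2 fold change 3.52, SE 0.075, adjusted p = 1.45e-19). The groups did not overlap. H2AC6, a core H2A, rose from 76.0, 91.5 and 64.7 to 728, 734 and 667 in NT3 and 474, 595 and 533 in NT4 (log2 fold change 2.99, SE 0.089, adjusted p = 3.63e-17). H1-2, a replication-dependent linker histone that binds DNA between nucleosomes, rose from 121, 126 and 100.1 to 877, 862 and 1289 in NT3 and 479.7, 539 and 466 in NT4 (log2 fold change 2.60, SE 0.11, adjusted p = 5.36e-15). Its highest value, in the third NT3 library, stood well above the other NT3 libraries, and without that library the log2 fold change was 2.50.

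Among less abundant members, H2BC4 rose from 14.8, 17.0 and 12.4 to 212, 279 and 184 in NT3 and 150.2, 143 and 136 in NT4 (log2 fold change 3.52, SE 0.14, adjusted p = 1.97e-15). H2BC5 rose from 31.4, 41.5 and 42.5 to 237, 231 and 235 in NT3 and 171, 196 and 204 in NT4 (log2 fold change 2.44, SE 0.10, adjusted p = 9.53e-15). H4C8, the most abundant H4 gene of the table, was near background in proliferating cells, at 2.62, 4.26 and 2.66 (3, 4 and 3 reads), and stood at 126, 164 and 115 in NT3 and 73.5, 89.5 and 89.4 in NT4. H2AC18 was similarly low in proliferating cells, at 2.62, 1.06 and 0.886, against 91.4, 100.7 and 119 in NT3 and 43.4, 81.7 and 66.4 in NT4. H2AC18 is named after its values were seen, with 3, 1 and 1 reads in proliferating cells. No fold is given for H4C8 or H2AC18, since it would rest on these few reads. H2AC25, a gene on chromosome 1 away from the main clusters, rose least of the named genes, from 27.9, 17.0 and 34.5 to 85.1, 105.7 and 129 in NT3 and 62.3, 63.3 and 60.6 in NT4 (log2 fold change 1.63, SE 0.20, adjusted p = 3.06e-07).

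**Figure D1:**
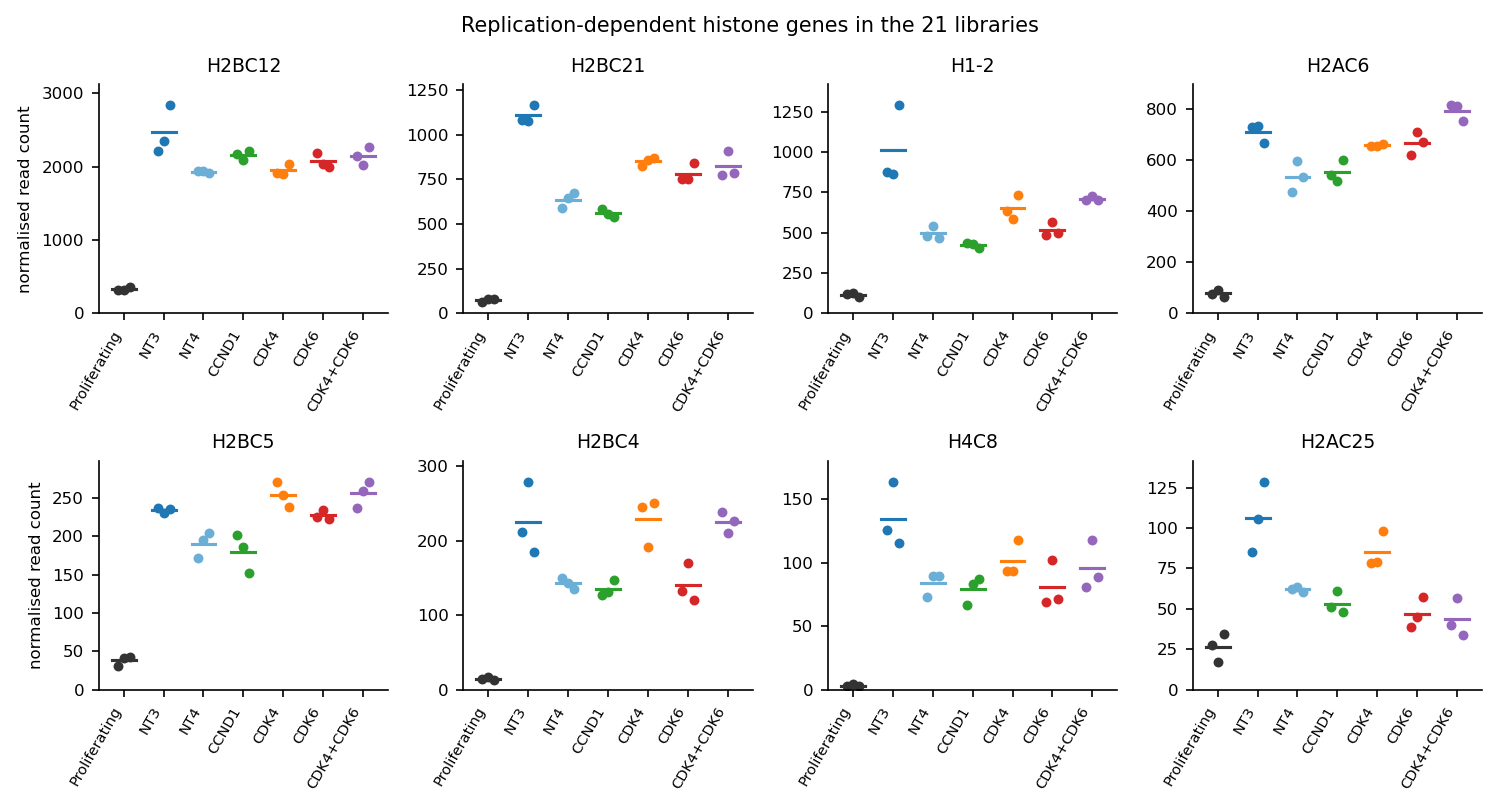
Normalised read counts (y axes, linear from 0, scaled per gene) of 8 replication-dependent histone genes in 7 groups. Points are libraries and horizontal lines are means of 3. All 8 genes have their lowest mean in proliferating cells, where H2AC25 overlaps dual knockdown, and NT3 lies above NT4 in the mean of each.

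Over all 56 replication-dependent members, fitted without a filter on low values, 25 were higher and 1 was lower in the controls, where 29.7% of all 14540 genes so fitted were higher and 28.5% lower. With the filter, 28 of the 32 members tested passed the threshold, beside 68.6% of the 11579 genes tested. Of these, 19 of 23 replication-dependent genes were higher, and H2AC11, H2AC15, H2BC15 and H2BC9 did not pass. No weight rests on that count, since 11 of the 19 had under 10 reads in every proliferating library and passed the filter only through the irradiated groups. Another 7 of the 19 had 10 or more reads in every proliferating library. Without the third NT3 library H2AC11 did pass (log2 fold change 0.82).

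Sums by family were also higher in the controls. The H4 sum was 7.68 (NT4) to 11.05 (NT3) times the proliferating level, the H2B sum 6.13 to 8.502 times, the H2A sum 5.04 to 6.91 times and the H1 sum 4.20 to 8.46 times. The H3 sum moved least, at 2.24 to 3.46 times, and held H3C12, the replication-dependent gene that fell. H3C12 had 11, 11 and 12 reads in the proliferating libraries and 1 to 8 in the 6 control libraries, with a log2 fold change of -1.42 (adjusted p = 0.0118, no filter). In the proliferating libraries the H4 sum rests on only 27, 19 and 11 reads, and the H3 sum on 55, 34 and 43. The size of the H4 and H3 ratios is therefore uncertain. These family ratios are descriptions without a test.

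Members with longer annotated transcripts had higher values. In GENCODE v44, 14 replication-dependent members have a transcript that ends more than 200 bases past the stop codon, beyond the stem-loop, and 42 do not. The median control mean was 44.8 for the former and 3.51 for the latter, and 11 of 14 against 12 of 42 reached 10. Of 6 members whose RefSeq gene spans over 1000 bases, all 6 reached 10, against 17 of the other 50. H2BC21, H2BC4 and H2BC5 are long in both annotations, H2AC6 and H4C8 in GENCODE alone and H2BC12 in RefSeq alone, while H1-2 is short in both. A longer annotated exon also collects more reads, and which exons the authors counted is not given in the sources used here, so annotation and level cannot be told apart. The differences in raw level between genes above carry the same length effect.

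Many H2A and H2B genes start back to back and share the DNA between them, which makes each pair a comparison within one stretch of DNA. The pairs below were picked after their values were seen. Among the genes with starts under 500 bases apart there were 11 such pairs, in 10 of which both genes were members. H2AC6 and H2BC4 were both among the rising genes named above. H2AC8 and H2BC8 were both called higher too, and went from means of 2.76 and 5.94 to 22.2 and 65.4. H2AC25 and H2BC26 were both called higher as well, H2BC26 going only from a mean of 0.355 to 2.35. H2BC11 went from 6.37 to 61.0 and was called higher, while H2AC11 went from 12.2 to 19.8 and did not pass. In the opposite sense H2AC13 was called higher and H2BC13 did not pass. Without the third NT3 library H2AC11 did pass in the fit with the filter (log2 fold change 0.82, SE 0.33, limma adjusted p = 0.0286). Neither gene passed in the pairs H2AC14 and H2BC14, H2AC15 and H2BC15, and H2AC17 and H2BC17. H2BC12 and H2AC12, which share 250 bases, were both called higher in the fit without a filter, at very different levels. H2BC12 went from a mean of 328 to 2198, while H2AC12 had no read in any proliferating library, where a count of 0 allows up to 3 reads, and a control mean of 1.80. H2BC21 went from 72.8 to 873, while its partner H2AC20, 235 bases away, went from 6.99 to 4.06 and did not pass the threshold (log2 fold change -0.72, no filter). H2AC12, H2AC20, H2BC13 and H2BC26 sit at or near the counting floor, and the exons of partners differ in length, so only the direction within a gene is compared.

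**Figure D2:**
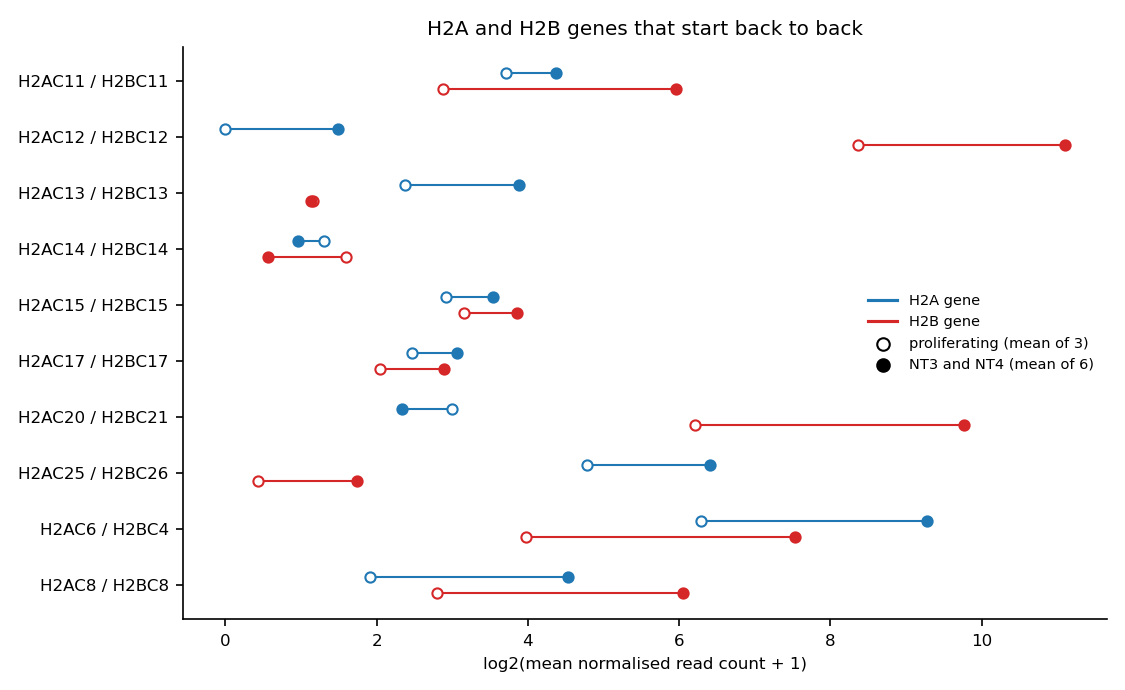
Mean level of each gene on the x axis, as log2(normalised read count + 1), for 10 pairs of H2A (blue) and H2B (red) genes that start back to back. Open circles are proliferating cells (mean of 3 libraries) and filled circles the NT3 and NT4 libraries (mean of 6). H2BC12 and H2BC21 move far to the right, and their partners H2AC12 and H2AC20 stay under a value of 8.

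The DNA between the starts is printed for the pairs that hold H2BC12, H2BC21 and H2AC6, which are among the 4 genes that make up most of the replication-dependent sum. Each is on the plus strand of GRCh38. The H2B gene leaves to the left on the minus strand and the H2A gene to the right. Capitals mark the CCAAT box, the TATA box (letters TATAAA) and the octamer (letters ATTTGCAT) on either strand, runs merging where matches overlap.
H2BC12 and H2AC12: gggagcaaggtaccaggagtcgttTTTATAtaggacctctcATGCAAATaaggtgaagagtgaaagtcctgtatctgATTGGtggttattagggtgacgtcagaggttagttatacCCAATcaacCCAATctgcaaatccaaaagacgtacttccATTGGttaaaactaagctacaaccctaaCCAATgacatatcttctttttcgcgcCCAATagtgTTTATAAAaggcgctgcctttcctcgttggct
H2BC21 and H2AC20: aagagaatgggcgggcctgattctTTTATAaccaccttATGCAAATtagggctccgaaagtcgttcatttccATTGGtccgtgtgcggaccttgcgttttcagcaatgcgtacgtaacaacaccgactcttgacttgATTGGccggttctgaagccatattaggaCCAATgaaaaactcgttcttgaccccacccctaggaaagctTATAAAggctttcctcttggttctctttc
H2BC4 and H2AC6: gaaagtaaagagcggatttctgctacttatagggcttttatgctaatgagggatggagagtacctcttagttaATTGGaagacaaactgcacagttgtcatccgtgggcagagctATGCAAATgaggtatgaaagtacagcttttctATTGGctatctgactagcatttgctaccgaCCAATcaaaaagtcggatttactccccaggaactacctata
The spans are chr6:27146856-27147105, chr1:149886683-149886917 and chr6:26123927-26124144. The first holds 6 CCAAT matches, the others 3 each, and every one of the 3 spans holds 1 octamer. The octamer is the site known from H2B promoters for the factor OCT1. In RefSeq's GRCh38.p14 promoters (250 bases before to 50 after the start, both strands), it was present in 12 of 16 H2B and 8 of 12 H2A members against 2.19% of 27305 promoters. CCAAT was present in 43 of 51 replication-dependent promoters against 39.7% of all, with 1 of 9 among H4 genes. TATAAA was present in 34 of 51 against 13.99%. Shared promoters put the same letters in the windows of both partners, so these counts are not independent. A match describes letters only, and members with and without the octamer were among those that rose.

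Most variants moved the other way. Of the 9, 8 were lower in the controls than in proliferating cells (36.1% of all genes tested were lower) and 1, H2AJ, was higher (32.6% were higher). The summed variant value was 28405 to 28785 in proliferating libraries and 12460 to 16777 in the 6 control libraries, without overlap. The control mean was 0.49 times the proliferating mean. Per kilobase of annotated exon, H2AZ1 was the most abundant variant over all libraries (1173 normalised reads per kilobase) and MACROH2A2 the least (16.3).

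H2AZ1 and H2AZ2 encode H2A.Z, a variant found around gene starts. H2AZ1 had 7305, 7318 and 7471 in proliferating cells, 2218, 2013 and 3215 in NT3 and 1902, 2126 and 1849.6 in NT4 (log2 fold change -1.76, SE 0.091, adjusted p = 2.10e-13). The third NT3 library was the highest of the controls yet far below every proliferating library. H2AZ2 fell from 3633, 3762 and 3681 to 1441, 1343 and 1351 in NT3 and 1381, 1284 and 1327 in NT4 (log2 fold change -1.45, SE 0.05, adjusted p = 3.21e-16), with the 6 control libraries close together.

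H1-10, a linker histone also expressed outside S phase, fell from 1513, 1461 and 1418 to 759.9, 730.01 and 909 in NT3 and 762, 816 and 659.8 in NT4 (log2 fold change -0.93, SE 0.079, adjusted p = 8.39e-10). Among linker histones, H1-2 thus rose while H1-10 fell.

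H3-3A and H3-3B both encode H3.3, the replacement H3. H3-3B fell from 7346, 7599 and 7675 to 3998, 3830.2 and 4463 in NT3 and 3887, 4199 and 3643 in NT4 (log2 fold change -0.92, SE 0.057, adjusted p = 5.16e-12). H3-3A fell from 1526, 1499 and 1527 to 924, 861 and 1030.3 in NT3 and 881, 956 and 924 in NT4 (log2 fold change -0.71, SE 0.059, adjusted p = 5.22e-10). MacroH2A proteins carry an extra globular domain and are known from the heterochromatin foci of senescent fibroblasts. MACROH2A2 fell from 397, 442 and 426 to 201.4, 214 and 272 in NT3 and 220.4, 231 and 207 in NT4 (log2 fold change -0.91, SE 0.10, adjusted p = 5.25e-08). MACROH2A1 changed least, from 2253, 2305 and 2129 to 1939, 1909 and 2379 in NT3 and 1682, 1747 and 1712 in NT4 (log2 fold change -0.24, SE 0.061, adjusted p = 0.0014). Its groups overlapped through the third NT3 library, and the call was lost against NT3 alone.

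H2AJ, a variant known to accumulate in senescent human fibroblasts, was the exception. It rose from 313, 277 and 251 to 617, 612 and 856 in NT3 and 489, 540.1 and 432 in NT4 (log2 fold change 1.05, SE 0.093, adjusted p = 1.62e-09). All control libraries lay above all proliferating ones, and NT3 lay above NT4.

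**Figure D3:**
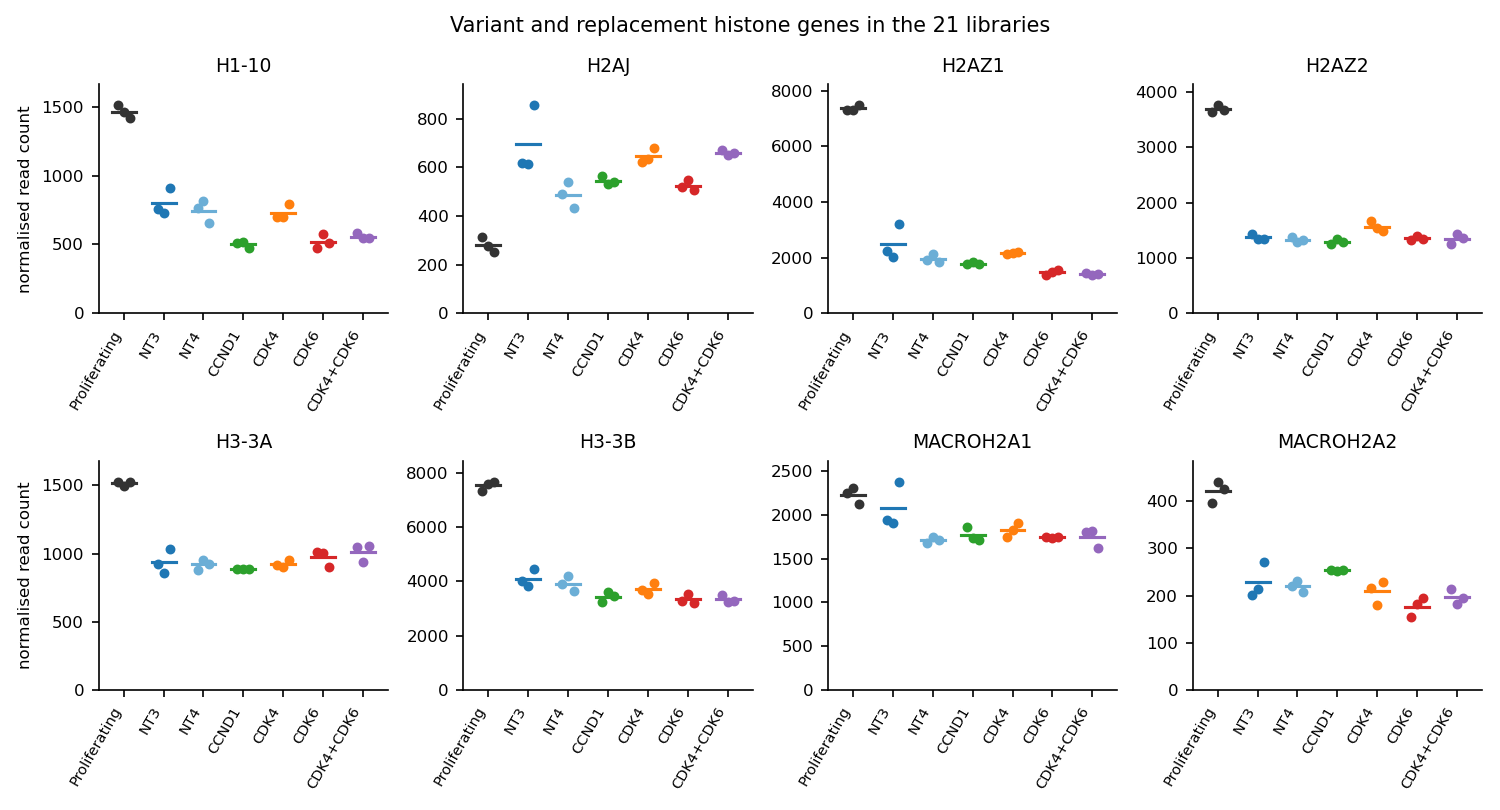
Normalised read counts (y axes, linear from 0, scaled per gene) of 8 variant and replacement histone genes in 7 groups. Points are libraries and horizontal lines are means of 3. H2AJ is lowest in proliferating cells, and the other 7 have their highest mean there.

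Cells treated with the 2 non-targeting siRNAs differed in histone genes. NT4 was lower than NT3 in 12 of 32 tested members and higher in none, where 27.8% of all genes passed the threshold and 13.1% were lower. No member was higher by limma at an unadjusted p under 0.05 either, nor by edgeR or DESeq2, which found 14 and 15 lower. H1-2 fell by 1.004, H2BC21 by 0.80, H2AC25 by 0.75 and H4C8 by 0.66 on the log2 scale. H2BC4 (log2 fold change -0.63, SE 0.16, adjusted p = 0.005), H2AC6 (log2 fold change -0.41, SE 0.10, adjusted p = 0.0045) and H2BC12 (log2 fold change -0.34, SE 0.075, adjusted p = 0.0016) were lower too. Among variants H2AJ (log2 fold change -0.50, SE 0.11, adjusted p = 0.0015), H2AZ1 (log2 fold change -0.31, SE 0.11, adjusted p = 0.0302) and MACROH2A1 (log2 fold change -0.27, SE 0.071, adjusted p = 0.0072) were lower. Without the third NT3 library 10 members were lower. H2AZ1 (-0.11) and H2AC25 (-0.60) then did not pass, and H1-2 stood at -0.82. In a fit of these 6 libraries alone, 4 members passed.

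Each knockdown was also set against each control alone. Taking each control alone, H1-2 passed the threshold in opposite directions in CDK4 knockdown (-0.62 against NT3, 0.39 against NT4) and in dual knockdown (-0.48 and 0.52). H2BC21 did so in CDK4 knockdown (-0.38 and 0.42), CDK6 knockdown (-0.50 and 0.30) and dual knockdown (-0.43 and 0.37). Over all genes tested, 0.881% (CDK4), 0.812% (CDK6) and 1.04% (dual) passed in opposite directions. Against the mean of the controls, H2BC21 did not pass in these 3 knockdowns, at 0.021, -0.10 and -0.032. The direction for H1-2 and H2BC21 therefore turned with the control used.

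**Figure D4:**
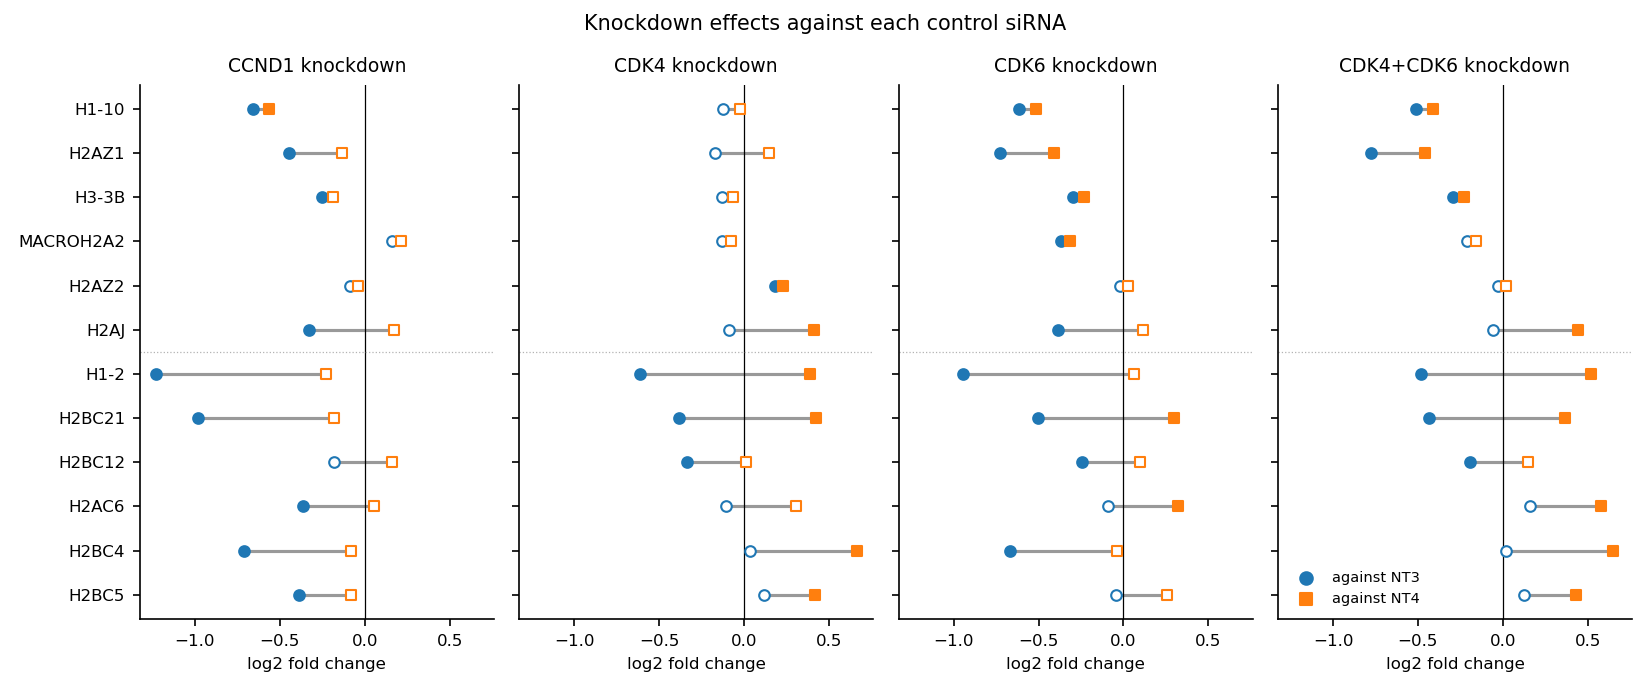
Log2 fold change (x axis) of 12 members in each knockdown against NT3 alone (circles) and NT4 alone (squares). Filled symbols passed an adjusted p of 0.05, the solid vertical line is 0, and the dotted line parts variants (above) from replication-dependent genes. H1-2 and H2BC21 lie left of 0 against NT3 and right of 0 against NT4 in the CDK4, CDK6 and dual panels, and H1-10, H2AZ1 and H3-3B lie left of 0 against both controls in the CDK6 and dual panels.

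CCND1 knockdown lowered 10 of the 32 members and raised none by limma against the controls (0 at an unadjusted p under 0.05, 0 by edgeR and 0 by DESeq2), where 31% of all genes passed and 14.4% were lower. H1-10 had 514, 519.6 and 477 (log2 fold change -0.61, SE 0.079, adjusted p = 5.62e-06), below all 6 control libraries. It was among the 2 members lower against NT3 alone and against NT4 alone, where 5.45% of all genes were. H1-2 had 437, 429 and 401 (log2 fold change -0.73, SE 0.11, adjusted p = 2.67e-05) and H2BC21 had 583, 559 and 539.8 (log2 fold change -0.58, SE 0.075, adjusted p = 5.33e-06). Both lay under every control library, but against NT4 alone they were -0.23 and -0.18 and did not pass. H2AC25 (-0.60), H2BC4 (-0.40), H2AZ1 (-0.29) and H3-3B (-0.22) were lower against the controls and not against NT4 alone. Against NT3 alone 18 members were lower (18.3% of all genes were), and against NT4 alone 2 (8.85%). Without the first CCND1 knockdown library the count of 10 was 5. Without the third NT3 library 12 members were lower, H2AZ1 stood at -0.19, and MACROH2A2 was higher (0.25, adjusted p = 0.0371). H2BC12, the most abundant replication-dependent member by raw value, had 2172, 2095 and 2216 and did not pass (log2 fold change -0.01, SE 0.065, adjusted p = 0.9282).

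CDK6 knockdown lowered 14 members and raised none by limma (0 at an unadjusted p under 0.05, 0 by edgeR and 0 by DESeq2), where 41.9% of all genes passed and 20.8% were lower. The variants H1-10, H2AZ1, H3-3B and MACROH2A2 were lower against each control alone, as were 10.9% of all genes. H2AZ1 had 1383, 1485 and 1549 (log2 fold change -0.57, SE 0.091, adjusted p = 3.59e-05), below every control library. H1-10 had 475, 579 and 509 (log2 fold change -0.57, SE 0.079, adjusted p = 6.72e-06) and was also below every control library. MACROH2A2 had 154, 182 and 194 (log2 fold change -0.34, SE 0.10, adjusted p = 0.0093) and H3-3B had 3273, 3528 and 3190.2 (log2 fold change -0.26, SE 0.057, adjusted p = 8.66e-04). Of the replication-dependent genes 9 were lower against the mean of the controls, among them H2AC25 (log2 fold change -0.79, SE 0.20, adjusted p = 0.0034), H1-2 (log2 fold change -0.44, SE 0.11, adjusted p = 0.0022) and H2BC4 (log2 fold change -0.35, SE 0.14, adjusted p = 0.0423). None of these 3 passed against NT4 alone, and H1-2 then stood at 0.061, with adjusted p = 0.7533. The count of 14 became 7 against NT4 alone, 2 of them higher, where 30.6% of all genes passed. Without the first CDK6 knockdown library it was 7, all lower.

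Dual knockdown lowered 6 members and raised 2, where 44% of all genes passed, 21.5% lower and 22.5% higher. H1-10 had 583, 544 and 548 (log2 fold change -0.46, SE 0.079, adjusted p = 6.44e-05) and H2AZ1 had 1458, 1386 and 1419.5 (log2 fold change -0.62, SE 0.091, adjusted p = 1.09e-05). Each lay below all 6 control libraries. With H3-3B, at 3484, 3247 and 3267 (log2 fold change -0.26, SE 0.057, adjusted p = 8.51e-04), these were among the 4 members lower against each control alone, as were 12.3% of all genes. H2AC25 was lower at 39.7, 56.8 and 34.0 (log2 fold change -0.91, SE 0.20, adjusted p = 9.59e-04), though not past the threshold against NT4 alone (-0.53). H2AC6 was higher at 815, 812 and 753 (log2 fold change 0.37, SE 0.089, adjusted p = 0.002), above all control libraries, and H2BC5 at 237, 259.9 and 271 (log2 fold change 0.28, SE 0.10, adjusted p = 0.0364). Against NT3 alone neither rise passed (0.16 and 0.13). The 11 members that passed against NT3 alone were all lower, where 21.9% of all genes were lower. Against NT4 alone 4 members were lower, where 18.3% of all genes were, and 6 were higher, where 18.4% were. These 6 were H2BC4 (0.65), H2AC6 (0.58), H1-2 (0.52), H2AJ (0.44), H2BC5 (0.43) and H2BC21 (0.37). Without the third NT3 library 13 members passed, 4 higher and 9 lower, H2AJ (0.27) and H3-3A (0.16) then being higher.

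CDK4 knockdown raised 1 member and lowered none by limma (2 lower at an unadjusted p under 0.05, 0 by edgeR and 1 by DESeq2), where 16% of all genes passed, 8.46% higher and 7.55% lower. H2AZ2 had 1659, 1539 and 1488 (log2 fold change 0.20, SE 0.05, adjusted p = 0.007), above every control library. It was higher against each control alone, as were 2.05% of all genes, but not without the first CDK4 knockdown library. H2AJ (0.16) did not pass against the controls. Without the third NT3 library it did, at 0.24, and 3 members passed in all. Against NT3 alone 4 members were lower and 1 higher, where 25.6% of all genes passed, and against NT4 alone 6 were higher, where 5.66% of all genes were.

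Set against each other, the kinase knockdowns share no control library. CDK6 knockdown was lower than CDK4 knockdown in 11 members and higher in none by limma (0 at an unadjusted p under 0.05, 0 by edgeR and 0 by DESeq2), where 34.8% of all genes passed and 17.3% were lower. H2BC4 had 132, 169.6 and 119.8 under CDK6 knockdown and 244, 192 and 250.3 under CDK4 knockdown (log2 fold change -0.70, SE 0.16, adjusted p = 0.0013), without overlap. H2AZ1 (log2 fold change -0.55, SE 0.11, adjusted p = 2.76e-04), H1-10 (log2 fold change -0.49, SE 0.091, adjusted p = 2.28e-04) and H2AC25 (log2 fold change -0.86, SE 0.23, adjusted p = 0.0063) were lower and did not overlap either. H2AZ2 (-0.20), H2AJ (-0.30) and H1-2 (-0.33, limma adjusted p = 0.0436) were lower by less. Their calls were lost in 1, 5 and 13 of 31 alternatives. H2BC12 (0.088) and H2AC6 (0.015) did not pass. The count of 11 was 6 without the first library of either knockdown and 7 without the third of either.

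Adding CDK4 loss to CDK6 loss raised 3 members and lowered none by limma (1 lower at an unadjusted p under 0.05, 0 by edgeR and 0 by DESeq2). Of all genes 13% passed, 6.05% higher and 6.94% lower. Relative to CDK6 knockdown, H2BC4 stood at 238, 211 and 226 in dual knockdown (log2 fold change 0.69, SE 0.16, adjusted p = 0.005). H1-2 stood at 702, 726 and 701 against 486, 563 and 500.1 (log2 fold change 0.46, SE 0.12, adjusted p = 0.0152), and H2AJ at 672, 651 and 658 against 518, 547 and 509 (log2 fold change 0.33, SE 0.11, adjusted p = 0.0442). The libraries of these genes did not overlap. Of 31 alternatives, the H2AJ call was lost in 17, the H1-2 call in 2 and the H2BC4 call in 0. Without the first or the third CDK6 knockdown library, 1 member passed. H1-10 and H2AZ1 did not pass, with log2 fold changes of 0.10 and -0.050. The dual knockdown departed from additivity of both single knockdowns in 1 member, H1-2, which was higher than the sum by limma (3 higher and 1 lower at an unadjusted p under 0.05; 1 higher by edgeR and 1 by DESeq2). Of all genes 6.35% departed, 2.63% above and 3.71% below the sum. The call was lost in 9 of the fits that left out 1 library and with NT4 alone.

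Genes that make and load histones were described from lists of known function. For transcription and 3′ end processing of histone messages, 11 of 17 genes were lower and 3 higher in the controls than in proliferating cells, where 36.1% of all genes were lower and 32.6% higher. SLBP, the stem-loop binding protein, was at 809, 771 and 1047 in NT3 and 781, 870.02 and 762 in NT4 against 1159.9, 1055 and 1157 in proliferating cells (log2 fold change -0.43, SE 0.084, adjusted p = 1.17e-04). NPAT, the S phase activator of histone gene clusters, was lower (log2 fold change -0.61, SE 0.12, adjusted p = 1.16e-04), as was its partner CASP8AP2 (log2 fold change -0.85, SE 0.093, adjusted p = 4.54e-08). CDK2, the kinase that activates NPAT, was lower (log2 fold change -1.14, SE 0.066, adjusted p = 1.28e-12), and of its cyclins CCNE2 was lower (log2 fold change -1.90, SE 0.23, adjusted p = 2.45e-07) and CCNE1 higher (log2 fold change 0.49, SE 0.12, adjusted p = 7.57e-04). HINFP, which activates H4 genes, was higher (log2 fold change 0.47, SE 0.10, adjusted p = 2.38e-04). The median log2 fold change was -0.55 over the 17 genes and -0.026 over all genes tested.

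Of 22 chaperone and deposition genes tested, 17 were lower in the controls, where 36.1% of all genes were, with a median of -0.81. The deepest falls included the replication-coupled factors ASF1B (log2 fold change -2.54, SE 0.16, adjusted p = 4.85e-12), CHAF1B (log2 fold change -2.50, SE 0.12, adjusted p = 1.04e-13) and CHAF1A (log2 fold change -1.67, SE 0.077, adjusted p = 3.32e-14). NASP, an H3-H4 carrier, was also among them (log2 fold change -1.83, SE 0.089, adjusted p = 7.29e-14). Such depth was not shared by the whole list. The control mean was 0.17 times the proliferating mean for ASF1B, but 0.66 for RBBP4, 0.55 for TONSL, 0.54 for HAT1 and 0.42 for ANP32E. The last 4 are named after their values were seen. HJURP, the chaperone of centromeric CENPA, fell by 2.84 on the log2 scale. ASF1A fell less (log2 fold change -0.48, SE 0.065, adjusted p = 1.01e-06). The replication-independent H3.3 loaders HIRA (-0.13), DAXX (-0.041) and ATRX (-0.14) did not pass, and DAXX had only 9 to 19 reads per control library. CABIN1 (log2 fold change -0.37, SE 0.065, adjusted p = 3.76e-05) and UBN1 (log2 fold change -0.33, SE 0.073, adjusted p = 4.17e-04), partners of HIRA in its complex, were lower and are named after their values were seen. Variants outside the naming rule also fell: H2AX, phosphorylated at DNA breaks, from a mean of 1979 to 619.9 in NT3 and 516 in NT4 (log2 fold change -1.81, SE 0.091, adjusted p = 1.27e-13), and CENPA, the centromeric H3, from 442 to 53.6 and 39.7 (log2 fold change -3.26, SE 0.32, adjusted p = 7.10e-09). All 12 S phase reference genes, such as MCM2 and RRM2, were lower too, with a median of -2.33. Their part in the histone changes was not tested. In bulk RNA, fewer cells in S phase and less RNA per cell cannot be told apart.

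Under knockdown, S phase genes were lower in 10 of 12 cases with CCND1, 12 with CDK6 and 12 with dual knockdown, with medians of -0.63, -0.77 and -1.39. Of all genes tested, 14.4% (CCND1), 20.8% (CDK6) and 21.5% (dual) were lower. With CDK4 knockdown 3 were higher, where 8.46% of all genes were, and the median was 0.069. Chaperone genes were lower in 6 of 22 cases with CCND1, 10 with CDK6 and 11 with dual knockdown, with medians of -0.098, -0.19 and -0.17. They were higher in 3 cases with CCND1, 2 with CDK6 and 0 with dual knockdown, where 16.7%, 21.1% and 22.5% of all genes were. With CDK4 knockdown their median was 0.016. ASF1B had 60.6, 67.2 and 73.6 in CCND1, 115, 165 and 141 in CDK4, 52.9, 33.5 and 42.2 in CDK6 and 16.6, 16.4 and 22.0 in dual knockdown, against 138, 103.6 and 160.2 in NT3 and 132, 107.05 and 105.8 in NT4. The log2 fold change of ASF1B was -2.69 in dual knockdown, the deepest of the 4. CENPA fell by 2.54 in dual knockdown, where it had only 10, 2 and 12 reads, against 28 to 61 per control library. The size of that fall is therefore uncertain. H2AX fell by 0.82 in dual, 0.70 in CDK6 and 0.49 in CCND1 knockdown. Neither gene passed in CDK4 knockdown. Of the 17 genes of histone transcription and processing, 6 were lower with CCND1, 8 with CDK6, 9 with dual and 3 with CDK4 knockdown, where 7.55% of all genes were lower with CDK4 knockdown and the other shares are those given for the S phase genes. Of these 17 genes 1 was higher with CDK6 and 1 with dual knockdown, where 21.1% and 22.5% of all genes were. Against the mean of the controls CDK2 was lower in all 4 knockdowns, with log2 fold changes of -0.24 (CCND1), -1.04 (CDK4), -1.095 (CDK6) and -1.89 (dual). The CDK2 mean in NT3 was 1.27 times that in NT4. CDK2 is not given against each control alone, so the small fall with CCND1 knockdown may turn on the control used. SLBP fell slightly in CDK6 (log2 fold change -0.22, SE 0.084, adjusted p = 0.0357) and dual knockdown (log2 fold change -0.22, SE 0.084, adjusted p = 0.0414), and NPAT in dual knockdown (log2 fold change -0.47, SE 0.12, adjusted p = 0.0028). Among the controls SLBP was highest in the third NT3 library. For SLBP, fits without that library or against each control alone are not given here. These comparisons share their controls, and the part of S phase genes in the falls of the variants was not tested.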

How the data were processed

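Poly(A) RNA of 21 IMR90 libraries was sequenced, 3 in each of 7 groups. The authors deposited a table of normalised signal, in which each value is a whole read count divided by 1 factor per library: 100.0% of values were whole reads within 0.1 read after multiplying by that factor. Per the submitters' processing notes, Trimmomatic 0.38.1, HISAT2 2.2.1, featureCounts 2.0.3, FastQC 0.74, MultiQC and DESeq2 2.11.40.8 were used with hg38. Settings, strand and counting annotation are not given in the sources used here. The table ends at Entrez ID 140467, and histone genes beyond it are not analysed here.

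Columns were matched to groups by their names, which carry no replicate number, so libraries are numbered in column order as names only. limma 3.58.1 (R 4.3.3, trend) was fitted to log2(value + 1), with 14 residual degrees of freedom. Fold changes are on that scale, which understates the change of low genes. edgeR 4.0.16 and DESeq2 1.42.0 on the recovered reads were alternatives. In the last library the factor is so near 1 that whole multiples could not be judged by the automatic check, and its values were used alike. The fit was tested on simulated data. Alternatives were other pseudocounts (0.1 and 10), filters, scalings, tools, controls and left-out libraries.

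Genes described by library were the variants (1 is not reported here singly, though counts and sums include it), the 4 replication-dependent genes with the highest mean, and per comparison up to 4 rises and 4 falls among called members with a mean of at least 100 in the higher group. Members and gene lists were chosen with earlier results of these data known. Sequences came from GRCh38 with GENCODE v44 and RefSeq GRCh38.p14.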

Additional observations from a re-analysis of the deposited data

Results flagged for a closer look

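H1-2 departed from additivity: dual knockdown was 0.57 higher on the log2 scale than both single knockdowns added together (SE 0.16, limma adjusted p = 0.0377), where 6.35% of all genes departed. The mean normalised read count of H1-2 was 650 in CDK4, 516 in CDK6 and 710 in dual knockdown, against 1009 in NT3 and 495 in NT4. Because the sum counts the controls, the value was 1.08 with NT3 alone and 0.072 with NT4 alone. It passed the threshold in 20 of the 33 alternatives and missed it in 13. The misses include leaving out NT4 library 1 or 2, CDK4 knockdown library 1 or 2, CDK6 knockdown library 1 or 3, or any dual knockdown library, each with an adjusted p between 0.0511 and 0.1218 by limma and a value of 0.50 to 0.58.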

How the results depend on the processing

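Of 2043 alternative values for 64 single-gene results, 1934 kept their direction and side of the threshold. All others lost the call except 1, which reversed: H1-2 in CDK6 knockdown stood at 0.061 with NT4 alone. The count of members called fell from 28 to 15 against proliferating cells with a filter on a mean of 100, which tests fewer genes. With the same filter it was 2 in CDK4 knockdown, 7 in CDK6 knockdown and 7 between CDK6 and CDK4 knockdown. Fitting the compared groups only, which uses fewer samples, gave 4 between the controls, 6 in CCND1, 0 in CDK4 and 9 in CDK6 knockdown, 0 for the departure from the sum and 5 between dual and CDK6 knockdown. NT3 alone gave 18 (CCND1), 5 (CDK4) and 5 (departure), and NT4 alone 2 (CCND1), 6 (CDK4), 7 (CDK6) and 0 (departure). Quantile normalization gave 2 (CDK4) and 9 (CDK6), edgeR 2 and DESeq2 3 (both CDK4). Apart from the alternatives whose construction is named, the cause was not tested. Leaving out 1 library gave 28 to 30 against proliferating cells, 9 to 14 between the controls, 5 to 13 in CCND1, 0 to 3 in CDK4, 7 to 15 in CDK6 and 6 to 13 in dual knockdown, 0 to 1 for the departure, 6 to 13 between CDK6 and CDK4 and 1 to 3 between dual and CDK6 knockdown. The lowest counts came without the first library of the CCND1 (5), CDK4 (0) and CDK6 (7) knockdowns, and the highest in dual knockdown (13) without the third NT3 library. The median shift that a scaling gave to the log2 fold changes was at most 0.081, against proliferating cells with quantile normalization. There the median of all genes went from -0.026 to -0.004.

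No paired analysis was possible because the columns carry no replicate number of the titles. A replicate block by runs of 6 header numbers, chosen after seeing the data, gave 2 calls in CDK4 knockdown, 0 for the departure, 14 between the controls, 12 in CCND1, 15 in CDK6 and 10 in dual knockdown. Libraries of the same run correlated at -0.11 to 0.10 (45 pairs), and 8 of 18 had their best partner in it. Members with few reads limit what can be seen: 28 of the 33 under the filter had under 10 reads in every library.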

Other observations

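H3C12, a replication-dependent H3 gene, had 11, 11 and 12 reads in the proliferating libraries, 3, 8 and 4 in NT3 and 4, 3 and 1 in NT4. In the fit without a filter on low values it was lower than in the controls in CCND1 knockdown (log2 fold change -1.44, adjusted p = 0.0264), CDK6 knockdown (-1.29, adjusted p = 0.0359) and dual knockdown (-1.42, adjusted p = 0.0205) by limma. These rest on at most 3 reads per knockdown library, and H3C12 was picked after its values were seen.

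The 33 members under the filter summed to 56.4 to 75.1 normalised reads in proliferating libraries, 91.0 to 105.9 in NT3, 51.2 to 85.6 in NT4, 52.3 to 68.7 in CCND1, 67.2 to 87.3 in CDK4, 37.7 to 61.5 in CDK6 and 34.9 to 47.1 in dual knockdown. The dual knockdown libraries lay below those of NT3, NT4 and the proliferating cells. No test was made.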
